A study of Mus musculus with 30 samples.

Results

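The 9 genes described here, Emcn, Pecam1, Cdh5, Kdr, Flt1, Tek, Tie1, Cd34 and Esam, are classical genes of blood vessel endothelium, and they were picked by symbol from a deposited table of 20889 gene symbols. All 9 were found, each in 1 row. The table gives RNA levels in cells of mouse testis as FPKM, fragments per kilobase of transcript scaled to the number of mapped fragments, in 11 columns. The mice were of the C57BL/6 strain and were taken at birth (P0) or on postnatal days 7, 12 and 14 (P7, P12 and P14), and all cells carry the label spermatogonia, the mitotic germ cells of the testis. KIT cells (P7, P12 and P14) and THY1 cells (P0, P7, P12 and P14) were taken from testis suspensions with magnetic beads against KIT, the receptor of differentiating spermatogonia, or THY1, a surface protein of undifferentiated spermatogonia. OCT4-GFP cells (P0 and P7) and ID4-GFP cells (P7) were sorted by fluorescence from mice whose green fluorescent protein reports Oct4 or Id4. Another library is labelled P7 VASA THY1, but VASA-GFP cells occur in the protocol for P0 alone, so its age is uncertain. The columns P7 KIT, P12 KIT, P0 THY1, P7 THY1 and P12 THY1 each stand for 2 libraries, and the other 6 columns for 1 library each. Every gene has 1 value per column, so no difference below has a replicate check, no test was made, and neighbouring levels in any order cannot be set against a replicate spread.

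Endothelial cells line the vessels that run between the seminiferous tubules, and germ cells lie inside the tubules, apart from the vessels. KDR and FLT1 are receptors for vascular endothelial growth factors: KDR carries most of the growth signal, and FLT1 binds the ligand tightly and signals weakly. TEK, also called TIE2, is the receptor for angiopoietins, and TIE1 is its partner. CDH5 (VE-cadherin), PECAM1 (CD31) and ESAM hold neighbouring endothelial cells together at their junctions. EMCN and CD34 are sialomucins of the vessel surface; CD34 is also carried by blood progenitors and by interstitial fibroblast-like cells, PECAM1 and ESAM also by platelets, and PECAM1 also by some early germ cells. In bulk RNA of this kind, fewer endothelial cells and less RNA per endothelial cell cannot be told apart.

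The RefSeq promoter table (build GRCm38.p6, 250 bases before to 50 bases after the start that table uses) held 6 of the 9 genes: Emcn, Kdr, Flt1, Tek, Tie1 and Cd34. That start can differ from the outer end of the gene. The Flt1 window lies wholly inside the gene, which spans 147561604 to 147726438, and the Kdr window also lies inside its gene. On that build Cd34 lies on chromosome 1, Emcn on 3, Tek and Tie1 on 4, Kdr and Flt1 on 5, Cdh5 on 8, Esam on 9 and Pecam1 on 11. Promoters of 4 are shown because their genes stand for the patterns below: Emcn had the largest and Flt1 the smallest FPKM ratio between P0 OCT4-GFP and P0 THY1 cells, Tie1 followed the course of most members at low levels, and Cd34 left the others at P14. Capitals mark 2 sets of letters, searched on both strands: CNGGAA, which holds the GGAA core bound by ETS factors, and NGATAN, the core bound by GATA factors.
Emcn, chr3:137340828-137341127, plus strand: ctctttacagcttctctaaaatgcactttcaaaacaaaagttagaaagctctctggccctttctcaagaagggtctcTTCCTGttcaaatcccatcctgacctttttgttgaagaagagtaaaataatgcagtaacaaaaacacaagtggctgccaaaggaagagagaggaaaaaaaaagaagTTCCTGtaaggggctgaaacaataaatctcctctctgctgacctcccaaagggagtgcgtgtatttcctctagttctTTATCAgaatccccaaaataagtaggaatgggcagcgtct
Tie1, chr4:118489800-118490099, minus strand: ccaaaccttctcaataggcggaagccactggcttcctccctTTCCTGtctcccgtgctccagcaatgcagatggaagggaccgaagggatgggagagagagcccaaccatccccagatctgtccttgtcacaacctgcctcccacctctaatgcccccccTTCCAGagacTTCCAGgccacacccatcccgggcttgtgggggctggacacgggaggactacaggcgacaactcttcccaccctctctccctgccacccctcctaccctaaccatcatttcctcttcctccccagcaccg
Flt1, chr5:147725962-147726261, minus strand: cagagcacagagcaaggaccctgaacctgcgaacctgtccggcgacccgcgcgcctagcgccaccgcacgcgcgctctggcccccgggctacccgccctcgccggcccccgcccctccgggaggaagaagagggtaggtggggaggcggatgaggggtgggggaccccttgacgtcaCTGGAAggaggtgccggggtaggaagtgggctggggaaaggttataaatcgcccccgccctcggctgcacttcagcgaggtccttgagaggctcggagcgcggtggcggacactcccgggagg
Cd34, chr1:194938571-194938870, plus strand: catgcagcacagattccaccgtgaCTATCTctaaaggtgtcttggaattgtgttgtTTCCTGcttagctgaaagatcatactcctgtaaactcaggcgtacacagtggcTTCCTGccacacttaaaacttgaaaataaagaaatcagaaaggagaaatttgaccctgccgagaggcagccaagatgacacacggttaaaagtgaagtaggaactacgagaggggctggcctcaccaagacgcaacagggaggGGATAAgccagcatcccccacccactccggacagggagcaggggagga
CNGGAA occurred in 6 of the 6 promoters, with 3 matches in Tie1, 2 each in Emcn and Cd34 and 1 in Flt1, and in 61.7% of all 32851 promoters of this length. NGATAN occurred in 4 of the 6, with 1 match in Emcn, 2 in Cd34 and none in Tie1 or Flt1, against 57.7% of all promoters. The 2 sets of letters overlapped in none of these 6 windows. A median of 1 match for either set over all promoters means that such letters are common, and a match is a description of the sequence alone.

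Across the 11 columns the summed level of the 9 genes was highest in P0 THY1, at 353 FPKM, and lowest in P7 ID4-GFP, at 9.09 FPKM. The KIT columns summed to 211, 70.6 and 26.9 FPKM at P7, P12 and P14, and the THY1 columns to 353, 172, 136 and 121 FPKM at P0, P7, P12 and P14. The OCT4-GFP columns summed to 16.0 FPKM at P7 and 24.5 FPKM at P0, and P7 VASA THY1 to 20.2 FPKM. The sum of these 9 genes was thus highest in bead-selected cells of the first postnatal week and low in every GFP-sorted column. The KIT selection left its mark: at P7, P12 and P14 the Kit gene had 78.9, 72.5 and 103 FPKM in KIT columns, against 21.3, 15.4 and 24.1 FPKM in THY1 columns. The Thy1 gene had 0.592, 0.386 and 0.216 FPKM in the same KIT columns, against 1.64, 1.17 and 1.20 FPKM in THY1 columns. At P7 it did not set THY1 cells apart from OCT4-GFP cells, which also had 1.64 FPKM, and ID4-GFP cells had 1.17 FPKM. At P0 it had 18.3 FPKM in THY1 and 5.07 FPKM in OCT4-GFP cells. All 9 genes reached 1 FPKM in P0 THY1 and in the P7 and P12 KIT and THY1 columns. In P14 KIT 2 of 9 did, Cdh5 and Cd34, and in P14 THY1 7 of 9 did, all but Flt1 and Tie1.

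**Figure D1:**
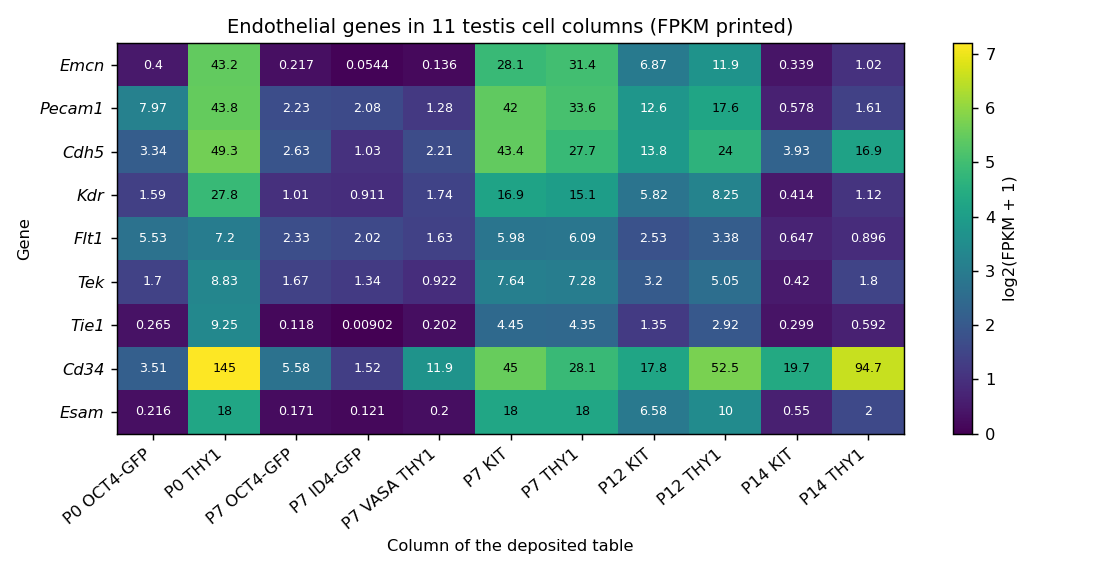
Heat map of the 9 endothelial genes (rows) in the 11 columns of the table (columns); colour gives log2(FPKM + 1) and the printed number the FPKM, 1 value per column. Levels are high in the P0 THY1, P7 and P12 bead-selected columns, and at P14 Cd34 (94.7 FPKM in THY1) stands above the other 8 genes.

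KIT cells were set against THY1 cells of the same age to compare spermatogonia that have begun to differentiate with a population enriched in stem cells. At P7 the endothelial genes barely separated the selections. Esam had 17.97 FPKM in both selections. Tek had 7.64 FPKM in KIT cells and 7.28 FPKM in THY1 cells, Flt1 5.98 and 6.09 FPKM, and Emcn 28.1 and 31.4 FPKM. Differences are given as KIT minus THY1 on the log2(FPKM + 1) scale, which understates the change of low genes. They ran from -0.15 for Emcn to 0.66 for Cd34, with a median of 0.06 over the 9 genes (-0.01 with quantile normalization), against a median of 0.03 over all 9817 genes with 5 FPKM or more in either column. A gene was counted as 4-fold different at a log2 difference of 2 or more in size, and 2-fold different at 1 or more, with 5 FPKM or more in the higher column. By that rule 0 of the 8 members with such a level differed 4-fold or 2-fold in either direction; the ninth gene, Tie1, had 4.45 FPKM in KIT cells and 4.35 FPKM in THY1 cells. The background of genes 2-fold higher in KIT cells was 2.78% and of genes 2-fold lower 2.73%, and at 4-fold it was 0.316% higher and 0.448% lower.

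The adhesion genes Cdh5 and Pecam1 and the sialomucin gene Cd34 had the largest P7 differences. Cdh5 had 43.4 FPKM in KIT cells and 27.7 FPKM in THY1 cells (0.63), Pecam1 42.0 and 33.6 FPKM (0.31), and Cd34 45.0 and 28.1 FPKM (0.66). All 3 were higher in KIT cells and none reached 2-fold. These values depend on which P7 column with a THY1 label is used. Against P7 VASA THY1 in place of P7 THY1, 6 genes were 4-fold higher and 8 were 2-fold higher in P7 KIT cells. The median difference was then 2.70. The share of all genes past these bounds was not computed for that pair of columns. P7 VASA THY1 had 1.28 FPKM of Pecam1 and 0.136 FPKM of Emcn, close to the GFP-sorted columns.

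At P12 every member was lower in KIT than in THY1 cells, by amounts that passed the 2-fold rule for Cd34 alone. The median difference was -0.54, against 0.02 over all genes with 5 FPKM or more, and values ran from -1.51 for Cd34 to -0.31 for Flt1. Cd34 had 17.8 FPKM in KIT cells and 52.5 FPKM in THY1 cells. The junction genes Cdh5 (13.8 and 24.0 FPKM), Pecam1 (12.6 and 17.6 FPKM) and Esam (6.58 and 10.03 FPKM) and the vessel surface gene Emcn (6.87 and 11.9 FPKM) were lower by less than 2-fold on that scale. Among the receptors, Kdr had 5.82 FPKM in KIT cells and 8.25 FPKM in THY1 cells, Tek 3.20 and 5.05 FPKM, Flt1 2.53 and 3.38 FPKM and Tie1 1.35 and 2.92 FPKM. The receptor differences were all negative and under 2-fold on the log2(FPKM + 1) scale; in FPKM, Tie1 was 2.16-fold lower in KIT cells. Of the 7 members with 5 FPKM or more in either column, 1 was 2-fold lower and 0 were 4-fold lower. The background was 6.51% of genes 2-fold lower and 0.208% 4-fold lower, and 0 members were higher, against 4.66% at 2-fold and 0.287% at 4-fold.

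At P14 the members were again lower in KIT cells, all 9 of them, at low levels for most; with quantile normalization Flt1 turned to 0.04. Cd34 had 19.7 FPKM in KIT cells and 94.7 FPKM in THY1 cells (-2.21) and Cdh5 3.93 and 16.9 FPKM (-1.86). Esam stood at 0.550 and 2.00 FPKM, Tek at 0.420 and 1.80 FPKM, Pecam1 at 0.578 and 1.61 FPKM, and Emcn at 0.339 and 1.02 FPKM. Kdr had 0.414 and 1.12 FPKM, Flt1 0.647 and 0.896 FPKM and Tie1 0.299 and 0.592 FPKM, so 7 of the 9 genes stood no higher than the 2.00 FPKM of Esam in THY1 cells. With 5 FPKM as the minimum only Cd34 and Cdh5 could be counted: both were 2-fold lower and Cd34 was 4-fold lower, beside backgrounds of 15.7% and 6.6%. With a pseudocount of 0.1 or median ratio scaling, 2 were 4-fold lower. None was higher, where 8.58% of genes were 2-fold and 0.419% 4-fold higher. The median difference of the 9 genes was -0.72 with a pseudocount of 1 and -1.36 with a pseudocount of 0.1, against 0.12 for all genes with 5 FPKM or more at a pseudocount of 1.

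**Figure D2:**
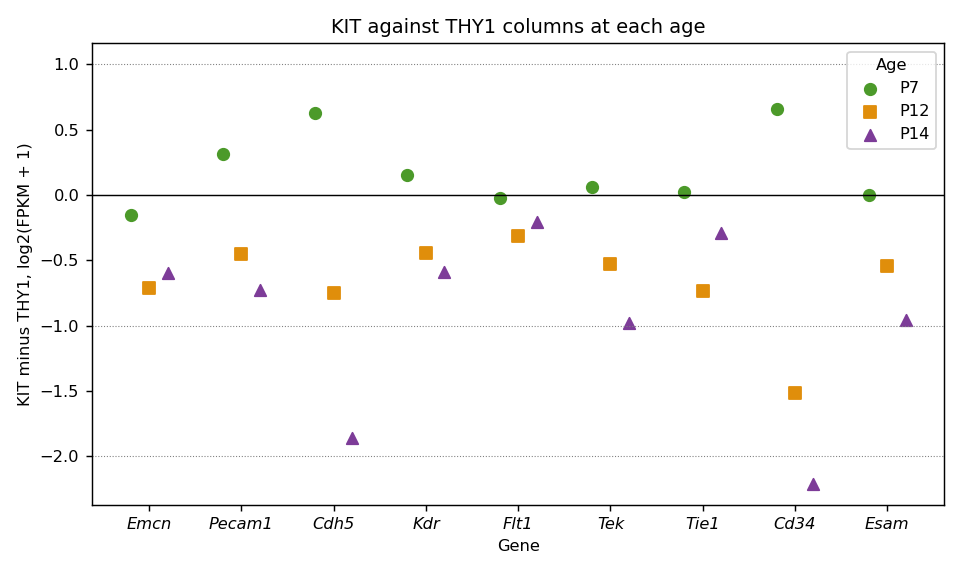
KIT minus THY1 difference of log2(FPKM + 1) for each of the 9 genes at P7 (circles), P12 (squares) and P14 (triangles), 1 column of each kind per age; dotted lines mark the 2-fold and 4-fold bounds. At P7 the values lie between -0.15 and 0.66, and at P12 and P14 all 18 values are below 0, of which Flt1 at P14 turns to 0.04 with quantile normalization.

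Over the first 2 postnatal weeks 8 of the 9 endothelial genes stood lowest at P14 in the THY1 columns. In the order P0, P7, P12 and P14, Emcn stood at 43.2, 31.4, 11.9 and 1.02 FPKM and Pecam1 at 43.8, 33.6, 17.6 and 1.61 FPKM. Esam stood at 17.97, 17.97, 10.03 and 2.00 FPKM and Cdh5 at 49.3, 27.7, 24.0 and 16.9 FPKM. Emcn, Pecam1 and Cdh5 were highest at P0, Esam was level from P0 to P7, and Cdh5 kept the largest part of its level at P14 among these 4. The growth factor receptors followed the same course, with Kdr at 27.8, 15.1, 8.25 and 1.12 FPKM and Flt1 at 7.20, 6.09, 3.38 and 0.896 FPKM. The angiopoietin receptor gene Tek stood at 8.83, 7.28, 5.05 and 1.80 FPKM and its partner Tie1 at 9.25, 4.35, 2.92 and 0.592 FPKM. Cd34 took another course, with 145, 28.1, 52.5 and 94.7 FPKM: it was lowest at P7 and higher at each later age.

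Between P7 and P0 in THY1 cells, Cd34 was the sole member past the 2-fold and the 4-fold rule (-2.33), 1 of 9 members, and none was higher; with a pseudocount of 0.1, 2 members were 2-fold lower. The background was 17.2% of genes 2-fold lower and 5.86% 4-fold lower, with 6.34% and 0.634% higher. The other 8 differences ran from -0.94 for Tie1 to -0.00 for Esam, and the median of the 9 was -0.45, against 0.00 over all genes with 5 FPKM or more. With quantile normalization Flt1 (0.22), Tek (0.09) and Esam (0.05) were above 0. In P7 VASA THY1 instead, 9 members were 2-fold lower and 8 were 4-fold lower than in P0 THY1, a comparison that mixes selection with age. Its share over all genes was not computed.

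From P7 to P12 in THY1 cells the median was -0.70, against 0.02 over all genes with 5 FPKM or more. Emcn was past the 2-fold rule (-1.33), 1 of 8 members with 5 FPKM or more, against 2.32% of genes 2-fold lower and 0.399% 4-fold lower, and none was 2-fold higher (background 6.1%) or 4-fold higher (0.968%). Cd34 was higher by 0.88. Against P7 VASA THY1, which differs in selection label too, the direction turned, with 7 members 2-fold higher and 5 members 4-fold higher in P12 THY1. The share over all genes was not computed for that pair of columns.

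From P12 to P14 in THY1 cells the median of the members was -1.30, against -0.07 over all genes with 5 FPKM or more. Of the 7 members at 5 FPKM or more, 5 were 2-fold lower at P14: Pecam1 (-2.83), Emcn (-2.67), Kdr (-2.12), Esam (-1.88) and Tek (-1.11), and the first 3 passed the 4-fold rule. The background was 16.6% of genes 2-fold lower and 5.49% 4-fold lower. None was 2-fold or 4-fold higher, against 15.9% and 6.6% of genes, although Cd34 was 2-fold higher with median ratio scaling. In FPKM, Emcn was 11.6-fold and Pecam1 10.9-fold lower at P14 than at P12, whereas Cdh5 was 1.42-fold lower. Cd34 was 1.80-fold higher. P14 THY1 and P14 KIT are 1 library each, so every P14 value rests on a single library.

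In KIT cells Cd34 too was lower at P12 than at P7. In the order P7, P12 and P14, Emcn stood at 28.1, 6.87 and 0.339 FPKM, Pecam1 at 42.0, 12.6 and 0.578 FPKM, Esam at 17.97, 6.58 and 0.550 FPKM, and Cdh5 at 43.4, 13.8 and 3.93 FPKM. Kdr stood at 16.9, 5.82 and 0.414 FPKM, Flt1 at 5.98, 2.53 and 0.647 FPKM, Tek at 7.64, 3.20 and 0.420 FPKM, and Tie1 at 4.45, 1.35 and 0.299 FPKM. These 8 genes were highest at P7 and lowest at P14. Cd34 stood at 45.0, 17.8 and 19.7 FPKM and was close to level from P12 to P14.

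At P12 against P7 in KIT cells, 7 of 8 members with 5 FPKM or more were 2-fold lower, from -1.89 for Emcn to -1.04 for Tek, with Flt1 just outside at -0.98, and 0 were 4-fold lower (1 with a pseudocount of 0.1). Over all genes with that level, 4.07% were 2-fold lower and 0.281% 4-fold lower; none of the members was higher, against 5.83% and 0.873%. The median of the 9 genes was -1.32, against 0.00 over all genes with 5 FPKM or more. At P14 against P12, 5 of 6 members were 2-fold lower (background 11.2%). Of these, Pecam1 (-3.11), Emcn (-2.56), Esam (-2.29) and Kdr (-2.27) were 4-fold lower, 4 of 6, beside a background of 3.07%; with quantile normalization 2 were, since Esam (-1.94) and Kdr (-1.92) then missed the bound. Cdh5 was the fifth, at -1.59, and Cd34 the exception, at 0.14. None was higher, against 5.52% at 2-fold and 0.274% at 4-fold, and the median was -1.59.

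**Figure D3:**
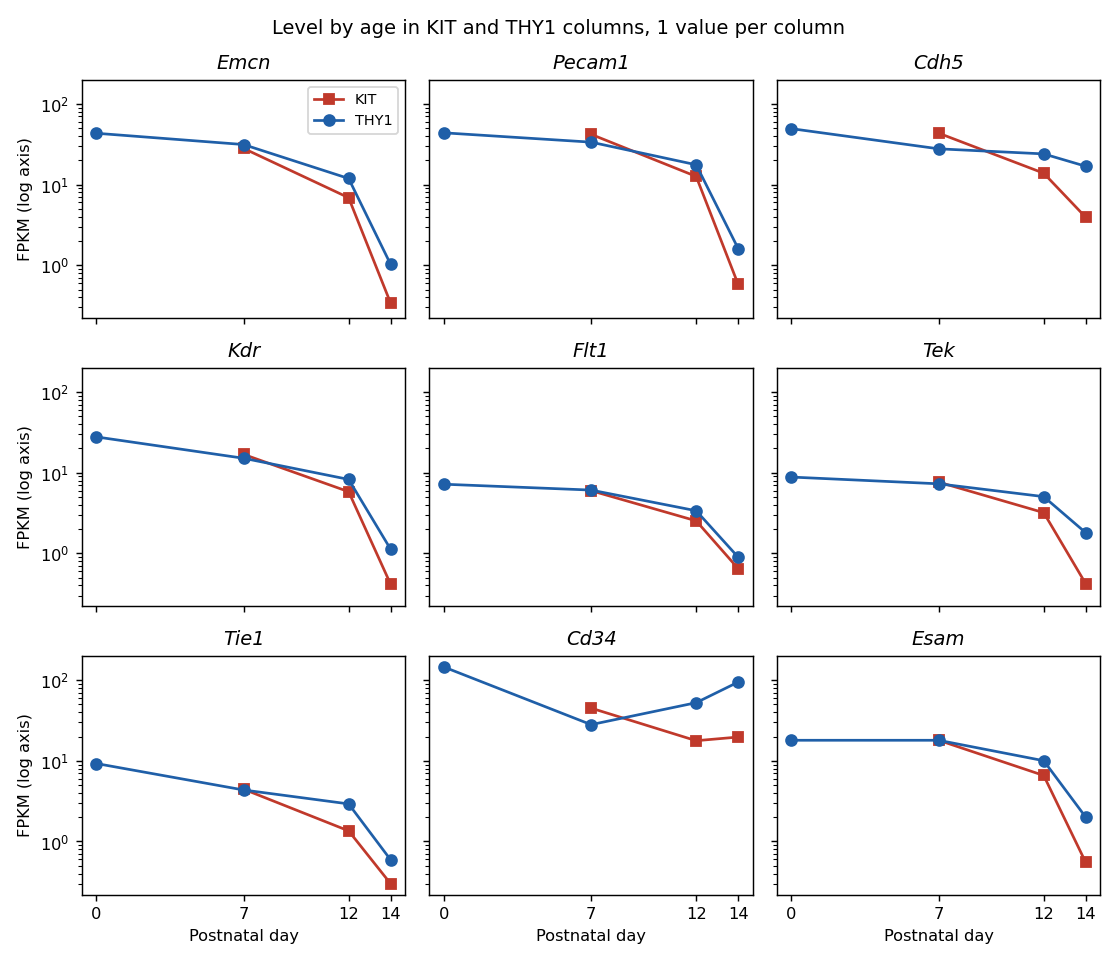
FPKM on a log axis against postnatal day for each of the 9 genes, with KIT columns as squares and THY1 columns as circles, 1 value per column. In both selections 8 genes are lowest at P14, while Cd34 stands at 19.7 FPKM in KIT cells and 94.7 FPKM in THY1 cells at that age.

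The GFP-sorted columns show how much of each transcript was found with germ cells selected by a reporter in place of beads. Emcn, Esam and Tie1 were nearly absent there. Emcn stood at 0.400 FPKM in P0 OCT4-GFP, 0.217 FPKM in P7 OCT4-GFP and 0.0544 FPKM in P7 ID4-GFP, with 0.136 FPKM in P7 VASA THY1. Esam lay between 0.121 and 0.216 FPKM and Tie1 between 0.00902 and 0.265 FPKM in these 4 columns. No member was listed at 0 in any column. The other 6 genes kept a low level, 1 FPKM or more in at least 3 of the 4 columns.

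Flt1 was nearest to its THY1 level in newborn OCT4-GFP cells, and Pecam1 had the highest level there of the 9 genes. Flt1 stood at 5.53 FPKM in P0 OCT4-GFP and 7.20 FPKM in P0 THY1 cells, a difference of -0.33, and at 2.33 FPKM in P7 OCT4-GFP cells. Pecam1 stood at 7.97 FPKM in P0 OCT4-GFP and 43.8 FPKM in P0 THY1 cells, and at 2.23 and 2.08 FPKM in P7 OCT4-GFP and P7 ID4-GFP cells. P7 minus P0 in OCT4-GFP cells was -0.97 for Flt1 and -1.47 for Pecam1. Pecam1 was the sole one of 3 members with 5 FPKM or more that passed the 2-fold rule between these ages (2 did with a pseudocount of 0.1), where the background was 3% lower and 2.49% higher; at 4-fold none was counted, against 0.137% lower and 0.148% higher. The 12 macrophage markers summed to 467 FPKM in P0 OCT4-GFP, 296 FPKM in P7 OCT4-GFP, 16.1 FPKM in P7 ID4-GFP and 10.1 FPKM in P7 VASA THY1, with none listed at 0. Of 8 platelet markers, Pf4 stood at 39.4 FPKM in P7 OCT4-GFP and 60.3 FPKM in P0 OCT4-GFP, while Gp9 was at or near 0 and Ppbp at 0.11 FPKM or less in both. The part of these cells in the Flt1 and Pecam1 levels was not tested.

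In P0 OCT4-GFP against P0 THY1 cells, 8 of 9 members were 2-fold lower and 7 were 4-fold lower, beside backgrounds of 21.9% and 10.6%. Emcn was 108-fold, Esam 83.1-fold, Cd34 41.5-fold and Tie1 34.9-fold lower in FPKM, and Flt1 was the exception at 1.30-fold, with a log2 difference that turned to 0.19 with quantile normalization. No member was higher, against 14.5% and 1.36%. Fibroblast markers were lower as well, with 83.4 FPKM in P0 OCT4-GFP and 7027 FPKM in P0 THY1 over 10 genes, and 9 of the 10 were 4-fold lower. Germ cell markers were higher, with 1562 and 716 FPKM over 8 genes.

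At P7, 8 members with 5 FPKM or more could be counted against THY1 cells, and all 8 were 2-fold lower in OCT4-GFP, in ID4-GFP and in VASA THY1 cells. The backgrounds of genes 2-fold lower were 11.8%, 13.3% and 10.3%. In each of these comparisons 6 of 8 were 4-fold lower, against 4.23% of genes in OCT4-GFP, 6.56% in ID4-GFP and 3.19% in VASA THY1 cells, and no member was 2-fold higher (background 8.88%, 9.1% and 7.66%) or 4-fold higher (0.34%, 0.172% and 0.428%). Median differences were -2.99 in OCT4-GFP, -3.49 in ID4-GFP and -2.55 in VASA THY1 cells. These comparisons share the P7 THY1 column, so they are not independent of each other, and they depend on it. Against P7 VASA THY1 the median over the members was 0.10 in OCT4-GFP cells. Only Cd34 had 5 FPKM or more in either column there, and likewise for ID4-GFP cells. Cd34 was not 2-fold lower in OCT4-GFP cells and was 2-fold lower in ID4-GFP cells. The share over all genes was not computed for these pairs of columns. Cd34 was the least reduced in VASA THY1 cells, at 11.9 FPKM against 28.1 FPKM in P7 THY1 cells, and stood at 5.58 FPKM in OCT4-GFP and 1.52 FPKM in ID4-GFP cells. Cdh5 stood at 2.63, 1.03 and 2.21 FPKM in OCT4-GFP, ID4-GFP and VASA THY1 cells, Kdr at 1.01, 0.911 and 1.74 FPKM and Tek at 1.67, 1.34 and 0.922 FPKM.

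The makeup of the endothelial signal differed between columns. Cd34 made up 41.2% of the summed FPKM of the 9 genes in P0 THY1, 16.4% in P7 THY1, 38.7% in P12 THY1 and 78.5% in P14 THY1. In KIT columns its share was 21.3%, 25.2% and 73.3% at P7, P12 and P14. Emcn made up 0.849% of the sum in P14 THY1 and 18.3% in P7 THY1, and Cdh5 14.0% in P14 THY1 and 16.2% in P7 THY1. Without Cd34 the sum was 7.17 FPKM in P14 KIT and 25.9 FPKM in P14 THY1, of which Cdh5 alone gave 3.93 and 16.9 FPKM. The P14 columns therefore held Cd34 and Cdh5 with little of the other 7 genes. Fibroblast and stroma markers, 10 genes with none listed at 0, stood beside this at 381 FPKM in P14 KIT and 1430 FPKM in P14 THY1 cells, against 213 FPKM in P12 KIT and 510 FPKM in P12 THY1 cells, and their part in the Cd34 and Cdh5 levels was not tested.

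**Figure D4:**
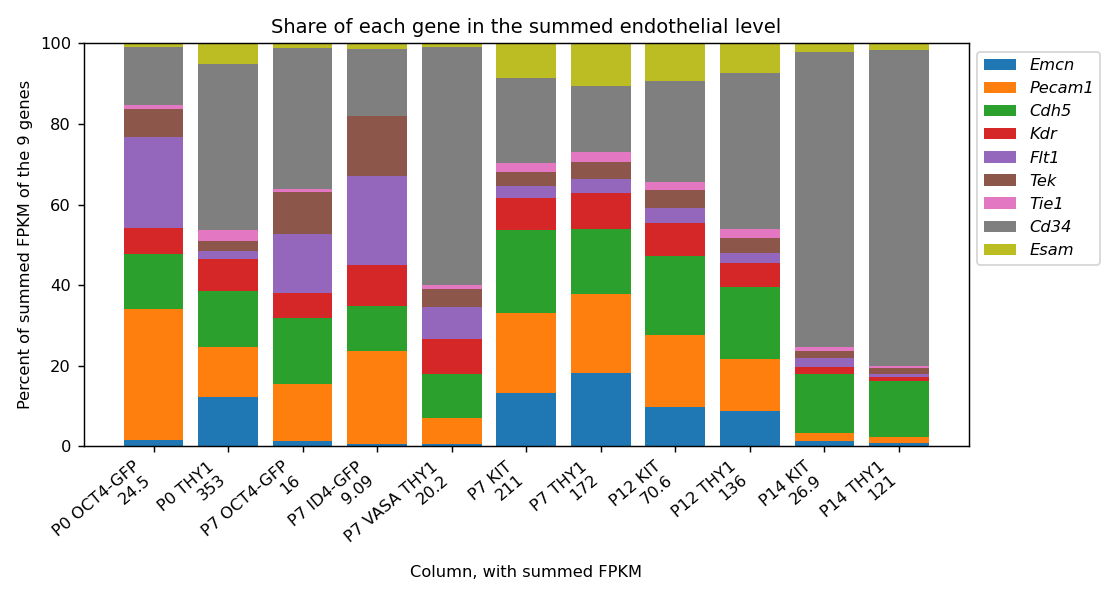
Stacked bars of the percent that each of the 9 genes gives to their summed FPKM in each column; the sum stands under the column's name. Cd34 (grey) takes 73.3% in P14 KIT and 78.5% in P14 THY1, and Flt1 (purple) takes 22.5% in P0 OCT4-GFP and 2.04% in P0 THY1.

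Ratios between genes within a column differed between selections and ages for some pairs. Kdr over Flt1 was 2.82 and 2.30 in P7 and P12 KIT and 3.86, 2.48 and 2.45 in P0, P7 and P12 THY1, but between 0.288 and 0.451 in the OCT4-GFP and ID4-GFP columns and 1.07 in P7 VASA THY1. At P14 it was 0.640 in KIT and 1.25 in THY1 cells. Cdh5 over Pecam1 stayed between 0.827 and 1.36 in the bead-selected columns up to P12 and was 6.79 in P14 KIT and 10.5 in P14 THY1. Tek over Tie1 did not set P14 KIT apart: it was 1.40 in P14 KIT and 3.04 in P14 THY1, against 0.954 to 2.36 in the bead-selected columns up to P12. FPKM is corrected for length, so these ratios compare levels, not read numbers.

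The pairs that varied together most closely over the 11 columns all held Emcn. Pearson's r of log2(FPKM + 1) was 0.99 for Emcn and Esam, 0.98 for Emcn and Tie1 and 0.98 for Emcn and Kdr. Over all 36 pairs r ran from 0.18 to 0.99, with a median of 0.90. The 8 pairs with Cd34 had a median of 0.66, and the lowest r was that of Flt1 with Cd34. With the mean profile of the other 8 members, r was 0.99 for Emcn and 0.67 for Cd34. The columns share ages and selections, so these values are descriptions. Set against the mean profile of 10 fibroblast and stroma markers, Cd34 had r = 0.93 and Emcn 0.66, and against 28 other endothelial genes Cd34 had 0.65 and Emcn 0.98. Cd34 also had r = 0.88 with VEGF and angiopoietin ligands, 0.84 with peritubular myoid and 0.80 with pericyte markers. For Cdh5, r was highest with the VEGF and angiopoietin ligands, at 0.94, and was 0.91 with the other endothelial genes. Its r was 0.84 with peritubular myoid and 0.79 with the fibroblast and stroma markers. Emcn had r = 0.90 with the ligands and 0.81 with peritubular myoid markers.

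Among 12094 genes with 1 FPKM or more in at least 2 columns and 5 FPKM or more in at least 1, the gene closest to the members' mean profile was Ecscr, an endothelial surface protein gene (r = 0.99 over 11 columns). Gimap6, Tm4sf1, Clec14a, Eng, Lpar6, Leprel1, Gimap4, Aplnr and 8430408G22Rik came next, with r between 0.97 and 0.99. Of these 10, Ecscr, Clec14a, Eng and Aplnr are in the list of other endothelial genes. Ecscr stood at 14.7, 6.36 and 0.515 FPKM in P7, P12 and P14 KIT and at 18.9, 12.3, 8.07 and 1.44 FPKM in P0, P7, P12 and P14 THY1 cells. Gimap6, of the GIMAP family of GTPases, stood at 21.6, 6.84 and 0.312 FPKM and at 31.5, 26.9, 9.03 and 0.834 FPKM in the same order.

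The 28 other endothelial genes, all in the table, had medians of the same sign as the members in the comparisons of KIT with THY1 and of P14 with P12. Their median difference was 0.15, -0.31 and -0.23 for KIT minus THY1 at P7, P12 and P14, -1.06 for P14 minus P12 in THY1 cells and -1.13 for the same ages in KIT cells. From P12 to P14 in THY1 cells 6 of 11 genes with 5 FPKM or more were 2-fold lower, beside a background of 16.6%, and none was higher. Adgrl4 (listed as Eltd1), an adhesion receptor gene of vessels, stood at 0.260 FPKM at P14 and 6.00 FPKM at P12, and S1pr1, a receptor for the lipid sphingosine-1-phosphate, at 1.75 and 11.6 FPKM. In KIT cells at P12 against P7, 11 of 17 were 2-fold lower (background 4.07%), led by Sox18, a vessel transcription factor gene, at 2.43 and 15.5 FPKM. In P7 ID4-GFP cells 10 of 15 were 4-fold lower than in THY1 cells (background 6.56%), among them S1pr1 (0.135 and 17.5 FPKM) and Ecscr (0.201 and 12.3 FPKM). The counts were 7 of 15 in P7 OCT4-GFP (4.23%), 9 of 15 in P7 VASA THY1 (3.19%) and 13 of 19 in P0 OCT4-GFP cells (10.6%). In each of these 1 gene, Plvap, was 2-fold higher, beside backgrounds of 8.88%, 7.66% and 14.5%. Plvap stood at 8.45 FPKM in P7 OCT4-GFP, 9.56 FPKM in P7 VASA THY1 and 3.72 FPKM in P7 THY1 cells. Erg, Egfl7 and Rasip1, chosen like Plvap after their values were seen, were high in GFP-sorted cells too. Erg, an ETS factor gene, stood at 25.3 FPKM in P7 OCT4-GFP and 25.9 FPKM in P7 THY1 cells, Egfl7 at 23.3 and 30.0 FPKM, and Rasip1 at 10.3 and 6.14 FPKM.

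Ligands of the receptors, and related genes listed with them, had courses of their own. Angpt2, an angiopoietin that antagonises TEK in many settings, stood at 8.79, 3.59 and 0.448 FPKM in P7, P12 and P14 KIT and at 5.22, 19.1, 4.84 and 3.13 FPKM in P0, P7, P12 and P14 THY1 cells. Angpt1, the activating ligand of TEK, stayed below 1 FPKM in every column but P0 THY1, where it stood at 2.98 FPKM. In the same columns Vegfa, the main ligand of KDR, had 16.4, 16.0 and 3.11 FPKM (KIT) and 22.7, 26.2, 31.4 and 3.48 FPKM (THY1). Pgf, a ligand of FLT1, had 3.77, 2.92 and 1.99 FPKM (KIT) and 11.7, 8.40, 14.2 and 2.22 FPKM (THY1). Vegfa was higher at P12 than at P7 in THY1 cells, unlike Kdr and Flt1, and both Vegfa and Pgf were low at P14. Of the 8 genes in this list, 2 of the 3 with 5 FPKM or more were 4-fold lower at P14 than at P12 in THY1 cells (background 5.49%), and in KIT cells 1 of 4 was (background 3.07%). The third gene in THY1 cells, the angiopoietin-like gene Angptl4, was not lower, at 33.7 FPKM at P14 and 28.3 FPKM at P12. Vegfd (listed as Figf), a ligand of the same growth factor family, went the other way in KIT cells and was 2-fold higher, at 5.44 FPKM at P14 and 1.87 FPKM at P12, and Vegfb had 11.1 FPKM at P14 and 5.72 FPKM at P12.

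Pericyte markers, genes of the cells that wrap small vessels, did not run in parallel with the endothelial genes in THY1 cells. Rgs5 stood at 2.36, 6.44 and 0.137 FPKM at P7, P12 and P14 in KIT cells and at 10.7, 3.47, 42.5 and 10.2 FPKM at P0, P7, P12 and P14 in THY1 cells. The median of 9 such markers was 0.87 for P12 minus P7 in THY1 cells and -1.25 for KIT minus THY1 at P12. Mcam, also a gene of this list, stood at 463 FPKM in P0 OCT4-GFP and at 141 FPKM in P0 THY1 cells.

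Markers of other cell types of the testis were also found in the bead-selected columns, and some lists fell at P14 as the endothelial genes did. Fibroblast and stroma markers summed to 394, 213 and 381 FPKM in P7, P12 and P14 KIT and to 7027, 351, 510 and 1430 FPKM in P0, P7, P12 and P14 THY1 cells. From P12 to P14 in THY1 cells their median difference was 1.16, while that of the endothelial members was -1.30. Peritubular myoid (-1.59) and Sertoli markers (-4.07) were lower too, macrophage markers less so (-0.43), and Leydig markers were higher (0.50). In KIT cells the same ages gave -0.86 for peritubular myoid and -2.80 for Sertoli markers, against 0.45 for fibroblast and 1.21 for Leydig markers. Macrophage markers gave -0.80 there, with no gene of that list at 5 FPKM or more. The fall at P14 was thus not particular to the endothelial genes. Leydig markers, of the steroid-making interstitial cells, summed to 1129, 224 and 590 FPKM in the KIT and to 256, 117, 85.7 and 158 FPKM in the THY1 columns, and peritubular myoid markers to 141, 90.7 and 45.7 FPKM and to 1423, 221, 440 and 157 FPKM. Macrophage markers summed to 29.0, 19.2 and 4.68 FPKM in the KIT and to 553, 71.4, 106 and 74.2 FPKM in the THY1 columns; Cd163 was listed at 0 in P7 KIT. Sertoli markers summed to 126, 154 and 19.0 FPKM in the KIT columns and to 182, 222, 411 and 13.0 FPKM in the THY1 columns. Lymphatic markers summed to 48.0, 47.9 and 32.5 FPKM and to 102, 47.2, 59.7 and 58.3 FPKM, mostly from Pdpn and Reln, which other cells share. Leukocyte and blood progenitor markers summed to 12.6, 5.78 and 5.65 FPKM in the KIT and to 150, 45.7, 19.97 and 12.8 FPKM in the THY1 columns. Platelet markers summed to 6.42, 6.11 and 3.60 FPKM in the KIT and to 42.1, 9.30, 19.1 and 10.6 FPKM in the THY1 columns. Erythroid markers summed to 89.3 FPKM in P7 THY1 and to at most 10.7 FPKM in any other column. Alas2 alone gave 83.7 FPKM of the P7 THY1 sum, and the median of the 6 erythroid genes found was 1.07 FPKM there. Germ cell markers summed to 1215, 1867 and 2070 FPKM in the KIT and to 716, 1298, 1276 and 1997 FPKM in the THY1 columns, and the germline helicase gene Ddx4 ranged from 65.0 to 248 FPKM over all 11 columns. The part of these cells in the endothelial differences was not tested.

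**Figure D5:**
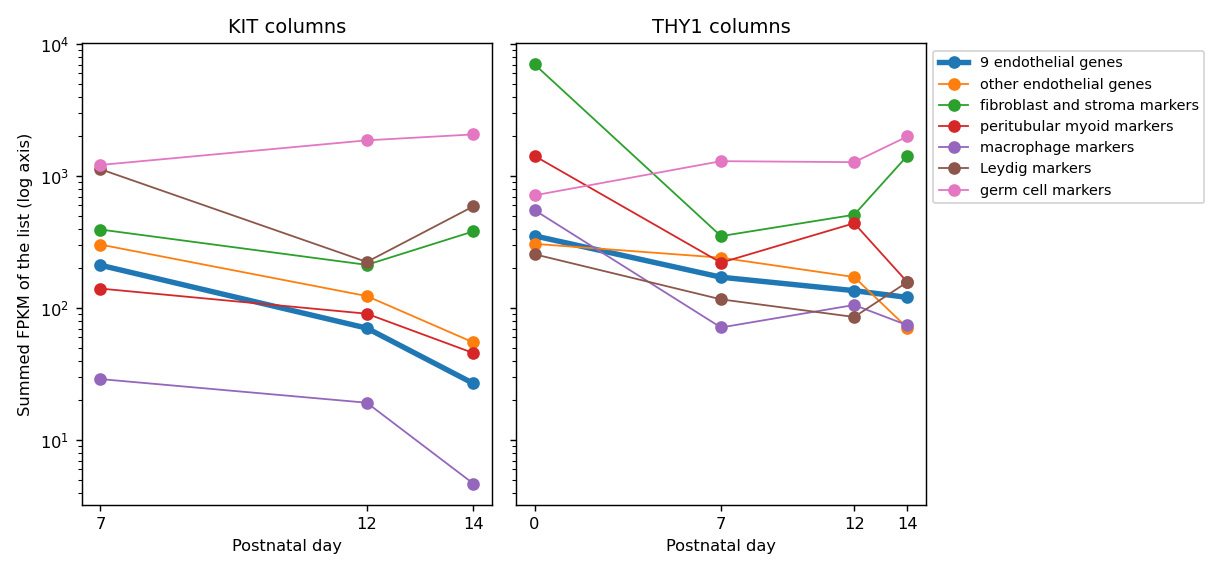
Summed FPKM of the 9 endothelial genes (thick line) and of marker lists of other cell types against postnatal day, in KIT columns (left) and THY1 columns (right), on a log axis. In THY1 cells the fibroblast list reaches 1430 FPKM at P14 while the other endothelial genes sum to 70.7 FPKM. The peritubular myoid list stands at 440 FPKM at P12 and 157 FPKM at P14, and Sertoli markers are not drawn.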

How the data were processed

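RNA of 16 libraries was measured by sequencing. Libraries kept the strand and were made from total RNA after removal of rRNA, per the labels' protocols. The submitters' processing notes name CASAVA, TopHat2 2.0.9, Cufflinks 2.1.1 and the build mm9, with no order of steps; the annotation and the way replicate libraries were combined are not given in the sources used here. The authors deposited FPKM in 1 table of 20889 symbols and 11 columns. The 8 bisulfite and 6 chromatin samples were not analysed here. Fragment counts are not in the table, so depth is unknown. Values under 0.05 FPKM show steps as single fragments would give, but only 14.8% to 29.2% of genes shared 1 step with P14 THY1, so no reads were recovered. The step of P7 THY1 was 3.72 times that of P14 THY1 and the others 0.957 to 2.04 times, so low P7 THY1 values are the least precise, if that step holds. Rmrp, a single non-coding RNA, gave 21.6% to 41.0% of summed FPKM in 10 columns and was listed at 0 in P7 ID4-GFP. The 75th percentile over all genes was 17.2 to 18.2 FPKM in every column.

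Differences of log2(FPKM + 1) were computed with Python 3.11.15, numpy 2.4.6 and pandas 2.3.3, and plots with matplotlib 3.10.9, for 13 comparisons. A gene was counted at 4-fold (log2 of 2) or 2-fold (log2 of 1) with 5 FPKM or more in the higher column, and percentages are over genes with that level. With 1 value per column no test was possible, and the size rule stands in its place. The 9 members, the 13 marker lists and the comparisons were chosen with earlier results of these data known. Named genes are the 9 members, the 10 genes most like them, up to 4 per list by size of difference, and ligand, pericyte and platelet genes whose values the text gives and which were chosen after their values were seen. Of 127 listed symbols 123 were found, 6 of them through a synonym. The calculation was tested on simulated data.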

Additional observations from a re-analysis of the deposited data

Results flagged for a closer look

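Cd34 and Cdh5 were set apart because their KIT minus THY1 difference, on the log2(FPKM + 1) scale, had opposite signs at different ages; 6 pairs of contrasts were compared for 9 genes, and a pair was listed where both differences were at least 0.5 in size. Cd34 was higher in KIT cells at P7 (0.66) and lower at P12 (-1.51) and P14 (-2.21). Cdh5 was also higher in KIT cells at P7 (0.63) and lower at P12 (-0.75) and P14 (-1.86). Cd34 further differed in its course with age: P12 minus P7 was -1.29 in KIT cells and 0.88 in THY1 cells. P7 minus P0 was 0.55 in OCT4-GFP cells and -2.33 in THY1 cells for the same gene. Each contrast has 1 value per column, so none of these differences between contrasts was tested.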

How the results depend on the processing

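No paired analysis was possible because the table holds 1 value per group, so a replicate block and leaving out each replicate were not run. Of 280 counts of members recomputed under other settings, 257 stayed within 1.5 times and 23 did not; of 70 medians, 59 stayed within 1.5-fold and 11 did not. The sign of 3 medians turned: KIT minus THY1 at P7 with quantile normalization (-0.01), and P12 minus P7 in THY1 cells (2.05) and OCT4-GFP minus THY1 at P7 (0.10) with P7 VASA THY1 in place of P7 THY1. With P7 VASA THY1 in place of P7 THY1, 6 members were 4-fold and 8 were 2-fold higher in P7 KIT cells. In the same setting 8 were 4-fold and 9 were 2-fold lower in P7 VASA THY1 than in P0 THY1. In P12 THY1 5 were 4-fold and 7 were 2-fold higher and 0 were 2-fold lower than in P7 VASA THY1. P7 VASA THY1 carries another selection label and an uncertain age, so these differences mix selection with age. Shares over all genes were not computed with P7 VASA THY1 in place of P7 THY1. Against P7 VASA THY1, Cd34 was the only member with 5 FPKM or more in either column for OCT4-GFP and for ID4-GFP cells at P7. It passed neither bound in OCT4-GFP cells, and it was lower past both bounds in ID4-GFP cells. The median over the members in OCT4-GFP cells was 0.10 (-2.99 against P7 THY1). A pseudocount of 0.1 gave 2 members 4-fold lower in P14 KIT than in P14 THY1 cells, 2 members 2-fold lower at P7 than at P0 in THY1 cells, 1 member 4-fold lower at P12 than at P7 in KIT cells and 2 members 2-fold lower at P7 than at P0 in OCT4-GFP cells. Median ratio scaling gave 2 members 4-fold lower in P14 KIT than in P14 THY1 cells and 1, Cd34, 2-fold higher at P14 than at P12 in THY1 cells. Quantile normalization gave 2 members 4-fold lower at P14 than at P12 in KIT cells. Without Cd34, a setting chosen after seeing the data, 0 members were 2-fold lower in P12 KIT than in P12 THY1 cells. In P14 KIT against P14 THY1 cells 0 were then 4-fold and 1 was 2-fold lower, and 0 were 4-fold and 0 were 2-fold lower at P7 than at P0 in THY1 cells. An FPKM minimum of 1 moved no count by over 1.5 times. Median ratio scaling shifted the median of all genes by -0.15 in KIT minus THY1 at P14, 0.20 in THY1 P7 minus P0, 0.21 in THY1 P14 minus P12, 0.14 in KIT P14 minus P12 and 0.14 in OCT4-GFP minus THY1 at P0. Of 117 single differences it turned the sign of 3 and quantile normalization that of 9, none of them 2-fold. The causes were not tested. Depth is unknown, so values far below 1 FPKM carry an error that cannot be given.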
